A study of Mus musculus with 6 samples.

Results

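The genes described here are 9 CXC chemokine and chemokine receptor genes, the ligands Cxcl1, Cxcl2, Cxcl9, Cxcl10, Cxcl12 and Cxcl16 and the receptors Cxcr2, Cxcr3 and Cxcr4, of 31053 genes listed in a single-cell mRNA-seq count table of mouse tumors. They were chosen by name, as members of a signalling family, and not by their values, and all 9 were found in the table. CT26 is a colorectal carcinoma cell line of the mouse that was grown as a tumor in mice, and CD45+ cells were enriched from the dissociated tumors with beads before sequencing on the 10x Genomics platform with chemistry that reads the 3' ends of transcripts. The sample labels describe 2 tumors of mice given vehicle, 2 of mice given a low dose and 2 of mice given a high dose of a PD-1 GITR-L bispecific antibody, which blocks the checkpoint receptor PD-1 and carries the ligand of the costimulatory receptor GITR. The tumors were collected 5 days after treatment, and the antibody's Fc part does not engage effector functions. The labels give the high dose as 30 mg/kg, while the low dose is written as 10 mg/kg in the treatment protocol and as 30 mg/kg among the sample characteristics. The labels and the publication also differ: the latter names another dose for the single-cell experiment and an isotype antibody, not vehicle, as its control. The count table names 4 libraries, M1, M2, M5 and M6, that none of these labels names, so that no library could be given a treatment, no treatment groups were compared and values are given library by library with no p-value.

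CXC chemokines are small secreted proteins that steer the migration of leukocytes through receptors that couple to G proteins. Cxcl1 and Cxcl2 bind Cxcr2 and draw neutrophils. Cxcl9 and Cxcl10 are induced by interferons, interferon-gamma above all, and bind Cxcr3 on activated T cells and NK cells. Cxcl12 is made by mesenchymal cells and binds Cxcr4, which most leukocytes carry, and Cxcl16 is a transmembrane ligand of macrophages and dendritic cells that binds Cxcr6 and is shed by the protease Adam10.

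On the mouse build GRCm38, Cxcl1 (chr5:90891241-90893115) and Cxcl2 (chr5:90903871-90905938) lie on the plus strand and Cxcl9 (chr5:92321347-92328079) and Cxcl10 (chr5:92346638-92348889) on the minus strand of chromosome 5. Cxcl12 (chr6:117168535-117181367) and Cxcr2 (chr1:74153989-74161246) are plus-strand genes, while Cxcl16 (chr11:70453983-70459984), Cxcr3 (chrX:101731535-101734269) and Cxcr4 (chr1:128588199-128592293) are on the minus strand. All 9 are annotated as protein-coding. The 250 bases before the RefSeq transcript start are shown for the 4 ligands of chromosome 5, because these 4 divide between the Stroma, Myeloid and DC labels in the counts below. The sequences are those of RefSeq on GRCm38.p6, written 5' to 3' along the gene's strand. Capitals mark each match to GGGNNNTTCC, the core of sites bound by NF-kB, or to TTTCNNTTTC, the core of interferon-stimulated response elements bound by IRF proteins, where N is any base and both strands were searched.

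Cxcl1: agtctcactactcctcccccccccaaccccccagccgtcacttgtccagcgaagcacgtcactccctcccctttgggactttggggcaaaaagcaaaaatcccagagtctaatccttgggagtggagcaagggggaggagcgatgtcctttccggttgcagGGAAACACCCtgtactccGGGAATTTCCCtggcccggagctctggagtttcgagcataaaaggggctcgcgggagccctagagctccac
Cxcl2: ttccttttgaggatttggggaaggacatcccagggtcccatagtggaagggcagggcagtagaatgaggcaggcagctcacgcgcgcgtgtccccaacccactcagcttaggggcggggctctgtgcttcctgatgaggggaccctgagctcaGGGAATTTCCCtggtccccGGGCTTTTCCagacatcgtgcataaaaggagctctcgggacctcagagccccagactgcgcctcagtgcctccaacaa
Cxcl9: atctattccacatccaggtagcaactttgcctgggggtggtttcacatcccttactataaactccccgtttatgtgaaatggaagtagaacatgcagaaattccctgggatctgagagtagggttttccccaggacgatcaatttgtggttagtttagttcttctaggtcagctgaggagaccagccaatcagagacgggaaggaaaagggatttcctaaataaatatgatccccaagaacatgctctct
Cxcl10: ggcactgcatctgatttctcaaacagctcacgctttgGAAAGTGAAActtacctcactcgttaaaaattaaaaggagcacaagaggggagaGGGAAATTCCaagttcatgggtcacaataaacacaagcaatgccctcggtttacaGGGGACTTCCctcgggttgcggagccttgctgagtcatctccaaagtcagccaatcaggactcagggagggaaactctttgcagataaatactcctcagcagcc

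These windows are chr5:90890995-90891244 for Cxcl1, chr5:90903649-90903898 for Cxcl2, chr5:92328080-92328329 for Cxcl9 and chr5:92348890-92349139 for Cxcl10. In both Cxcl1 and Cxcl2 the run GGGAATTTCCC held the NF-kB-like letters on both strands with an overlap, and each of these windows held 1 further match. The Cxcl10 window held 2 NF-kB-like matches and 1 ISRE-like match, and the Cxcl9 window held neither motif. Of all 32851 promoter windows of this length, 4.65% held the NF-kB-like and 2.98% the ISRE-like motif. The RefSeq table held windows for 8 of the 9 genes, and no match was found in those of Cxcl12, Cxcr2, Cxcr3 and Cxcr4. Cxcl16 had no entry. A match is only a run of letters and not a site shown to be bound. Other forms of the motifs were not searched, so that a window without a match may still hold a site.

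The table held 33961 cells, 7160 to 10294 in each library, with a median of 11399 to 21801 unique molecular identifiers (UMIs, 1 per captured transcript molecule) per cell. Each cell came with 1 of 12 labels, set by its best correlation with reference immune profiles. None of the labels names the CT26 tumor cells themselves. The 10 labels with at least 100 cells are put in order below, and T cell Naive (55 cells) and Stem cells (37 cells) are not. The markers of T, NK, B, macrophage, neutrophil and fibroblast cells were highest in a label of their kind, with Stroma taken as that of fibroblasts. Those of dendritic cells were highest in DC apart from Ccr7. The regulatory T cell markers Foxp3, Il2ra and Ikzf2 were highest in T cells or NKT. The fibroblast marker Col3a1 was below 500 of every 1000000 UMIs in 15113 of the 15687 Stroma cells. Whether these are CT26 cells was not tested. Of the mast cell markers, the proteases Cpa3 and Mcpt4 were highest in Myeloid and Kit in DC, and of the endothelial markers Pecam1 was highest in T cells and Cdh5 and Kdr in DC. Stroma held 46.2% of the cells but 75.6% of all UMIs and had a median of 40692 UMIs per cell, against 2811 to 12015 in the other labels. Ptprc, the gene of CD45, made up 7.47 of every 1000000 UMIs in Stroma and 1240.5 in NK cells, although the cells had been enriched for CD45. There were 111 barcodes that occurred in more than 1 library, in 222 cells, and 31 of these barcodes carried the same label.

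A level is given in counts per 1000000 UMIs (CPM), from UMIs summed over all cells of a label, and where 4 levels stand in a row they are those of M1, M2, M5 and M6, in this order. An interval is an exact 95% Poisson interval for a level and an exact binomial one for a share of cells, and each covers counting error only. A bracket after a level holds this interval where the 4 library levels stand beside it, and otherwise the lowest and highest library. Because a UMI count reflects the depth of a cell, the share of cells with a UMI is given after every cell was thinned to 2000 UMIs. All 9 genes had at least 100 UMIs, and 5 of them (Cxcl2, Cxcl9, Cxcl10, Cxcl16 and Cxcr2) had their highest level in Myeloid, as did 9.40% of the 15358 genes with at least 100 UMIs. Stroma was highest for Cxcl1 and Cxcl12, and was highest for 27.6% of all genes. The highest label was NKT for Cxcr3 and B cells for Cxcr4, the place of 8.60% and 16.9% of all genes. The same label was highest in all 4 libraries for 5 of the 9 genes, Cxcl1, Cxcl2, Cxcl9, Cxcl16 and Cxcr2, against 27.2% of all genes.

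**Figure D1:**
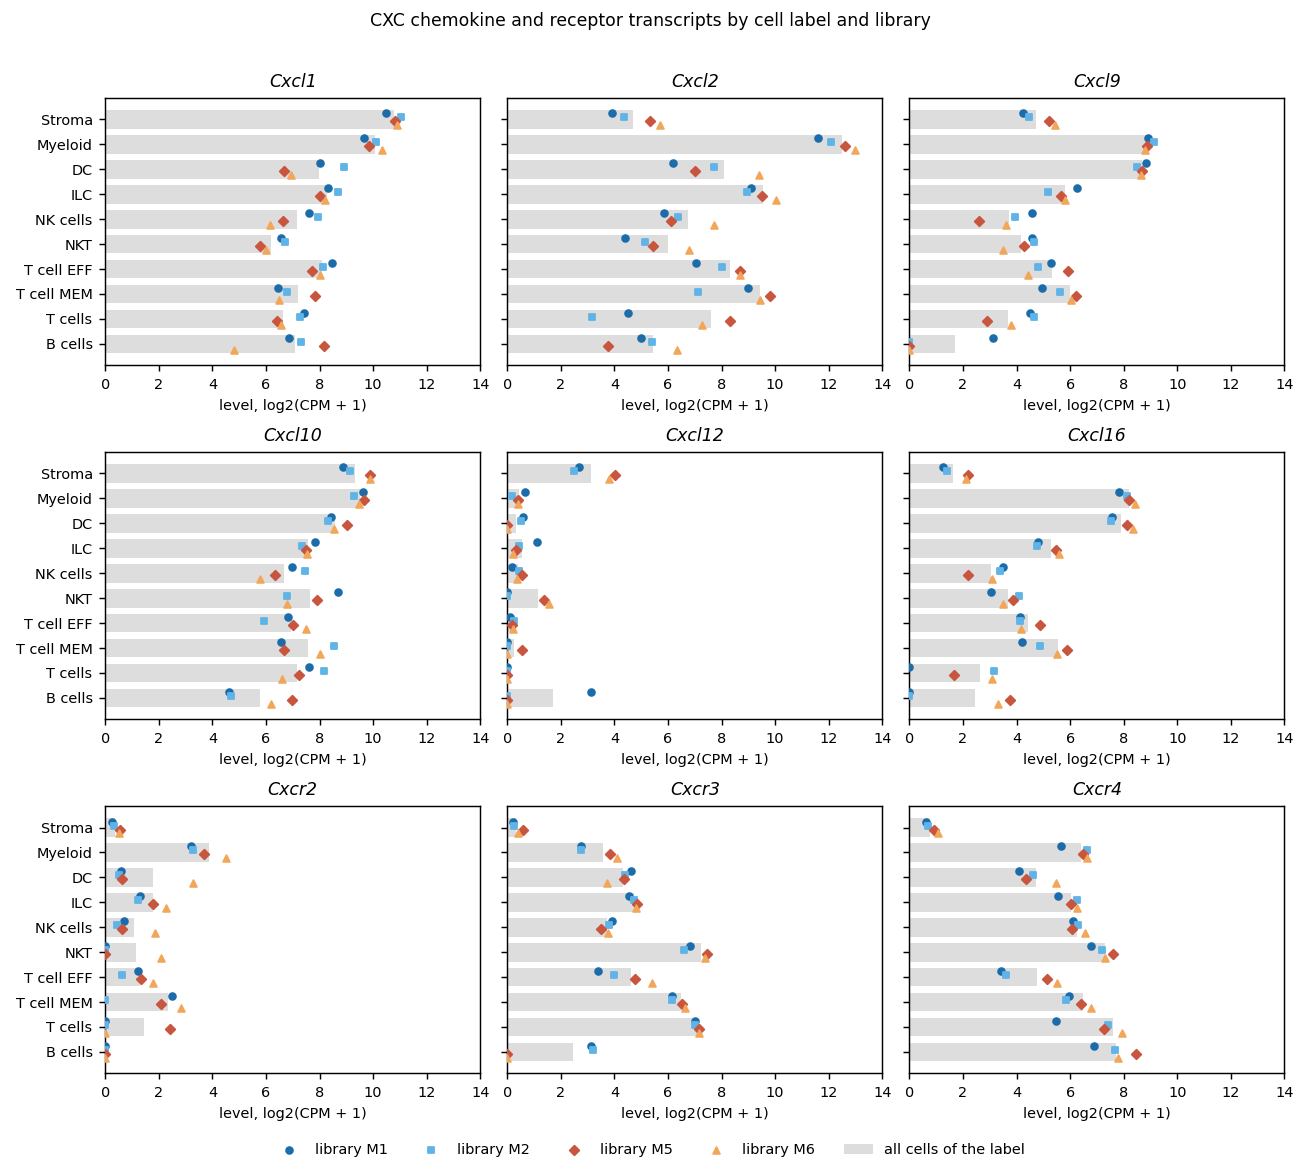
Level of each gene, in log2(CPM + 1), in the 10 labels with at least 100 cells. Grey bars give all cells of a label and the 4 symbols its libraries. Cxcl2 was at 5791 CPM in Myeloid and 25.1 CPM in Stroma, while Cxcl10 was at 737 and 637 CPM in these labels.

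Cxcl1 was a transcript of Stroma and Myeloid. In Stroma its level was 1425, 2095, 1798 and 1885 CPM, or 1763 CPM over all cells (1760.1 to 1766). In Myeloid it was 811, 1106, 925 and 1294 CPM, or 1061 CPM over all cells (1051 to 1072). Every Stroma value was above every Myeloid value, by 1.66-fold over all cells, and the Myeloid values in turn were above those of each label below. Further down the order came 309 in ILC, 269 in T cell EFF, 255 in DC, 147 in T cell MEM, 141 in NK cells, 136 in B cells, 99.2 in T cells and 71.1 in NKT, and the library ranges of all neighbours among these 8 labels overlapped. Without M2 the DC level was 161 CPM, and without M5 that of T cell MEM was 92.3 CPM. With 75.6% of all UMIs, Stroma held 93.5% of the 1305811 Cxcl1 UMIs and Myeloid 3.09%.

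After thinning, 70.8% of Stroma cells (70.1% to 71.5%) and 42.2% of Myeloid cells (40.3% to 44.2%) held a Cxcl1 UMI, against 14.3% of T cell EFF, a label not known to make it. Without thinning these shares were 94.5%, 63.2% and 44.0% (the median cell had 40692, 8027 and 10049 UMIs). The thinned shares in NK cells (14.2%), NKT (13.3%) and T cell MEM (13.9%) were at or below that of T cell EFF. Those in DC (15.03%, 12.1% to 18.3%), ILC (15.2%, 14.2% to 16.3%) and B cells (17.9%, 11.3% to 26.2%) were above it within their intervals, and that in T cells (20.2%, 14.8% to 26.5%) was above it. The source of the Cxcl1 transcripts in these labels was not tested. In T cell EFF, 35 of 3633 cells held as many Cxcl1 UMIs as all the others together, and the label's level was 138 CPM in place of 269 CPM without the 118 cells that scored over 0.25 for being a doublet, which is a droplet with more than 1 cell.

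Cxcl2, the second ligand of Cxcr2, was a Myeloid transcript. Its level there was 3062, 4287, 6158 and 8164 CPM, or 5791 CPM over all cells (5767 to 5816), and each of these was above every other label. In Stroma, where Cxcl1 was highest, Cxcl2 had its lowest level of the 10 labels, at 14.2, 19.3, 39.6 and 51.0 CPM, or 25.1 CPM over all cells. The 2 ligands thus had their highest levels in different labels in each of the 4 libraries. Between them stood 745 in ILC, 697 in T cell MEM, 314 in T cell EFF, 268 in DC, 196 in T cells, 107 in NK cells, 62.3 in NKT and 42.9 in B cells, with overlapping library ranges between all neighbours down to Stroma. Single libraries weighed on 4 of these levels: without M6 they were 141 CPM in DC, 69.1 in NK cells and 34.4 in NKT, and without M5 the T cells stood at 119.7 CPM. Myeloid held 69.1% of the 318605 Cxcl2 UMIs with 4.15% of all UMIs, and 69.5% of thinned Myeloid cells (67.6% to 71.2%) held one, against 7.59% of T cell EFF (75.8% and 21.5% unthinned).

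In several labels outside Myeloid, Cxcl2 stood at a share of its Myeloid level like that of myeloid markers. In ILC it was 12.9% of the Myeloid level, and the 10 macrophage and neutrophil markers were at 8.66% to 14.02% of theirs. In T cell EFF it was 5.42%, and the markers were at 5.06% to 7.44%. It was 12.03% against 8.62% to 23.5% in T cell MEM, 4.63% against 0.754% to 14.1% in DC, and 0.741% against 0% to 4.37% in B cells. NKT stood below all 10 markers, at 1.08% against 1.39% to 7.98%, and NK cells were at 1.85% against 1.86% to 9.33%. Among the cells with no UMI of these 10 markers, the Cxcl2 level was 76.8 CPM in ILC (2837 of 4628 cells) in place of 745 CPM, and 25.8 CPM in T cell EFF (2244 of 3633 cells) in place of 314 CPM. In DC it was 34.6 in place of 268 CPM (298 of 556 cells), where the latter was 141 CPM without M6. The Cxcl2 UMIs of several labels also sat in few cells. As many as in all the others of their label were held by 67 ILC, 25 T cell EFF, 11 T cell MEM and 15 NKT cells. For NK cells and DC these numbers were 10 and 6. In T cells, 1 cell held 131 of the 229 Cxcl2 UMIs. Whether doublets, free RNA or the labelling brought these transcripts into the cells was not tested.

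The receptor of both ligands, Cxcr2, was sparse, with 1088 UMIs in all. Its Myeloid level was 8.25, 8.79, 11.8 and 21.8 CPM, or 13.8 CPM over all cells (12.7 to 15.1), and no other label's library range reached the Myeloid range except that of DC, whose 8.69 CPM in M6 stood above the lowest Myeloid library. The DC level was 2.45 CPM with all libraries and 0.484 CPM, from 3 UMIs, without M6. All other labels were at or below 4.13 CPM, Stroma was at 0.292 CPM and B cells had no UMI, where the 3 counts taken as the limit for a count of 0 come to 6.78 CPM and the exact interval reaches 8.33 CPM. After thinning, 4.71% of Myeloid cells (3.92% to 5.61%) and 0.141% of T cell EFF held a UMI (9.96% and 1.16% unthinned). The Myeloid share was 2.00% to 8.39% in single libraries and 3.03% without M6.

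Within Myeloid, Cxcl2 and Cxcr2 were highest in cells with neutrophil transcripts. The label was divided by transcripts other than the 9 genes, first at 1000 CPM of the complement genes C1qa, C1qb and C1qc, which mark macrophages, and then, below that level, by whether at least 3 of the 5 neutrophil genes S100a8, S100a9, Retnlg, Csf3r and G0s2 were detected. These are ranges of cells and not types, and 227 of the 2680 cells lay within 2-fold of the C1q threshold. Cxcr2 was at 104, 91.2, 69.6 and 77.9 CPM in the 417 cells with neutrophil transcripts, at 1.26 to 2.65 in the 1552 cells with fewer and at 4.95 to 8.85 in the 711 C1q-high cells. The 417 cells held 75.7% of the Myeloid Cxcr2 UMIs but 28.2% of the Myeloid Cxcl2 UMIs, with 13.2% of the label's UMIs. The median depth was 5035 UMIs in these cells, 7892 in those with fewer neutrophil transcripts and 13452 in C1q-high cells.

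The Cxcl2 level in the same 417 cells was 7223, 8353, 13222 and 13347 CPM, and 97.2% of them held a UMI after thinning. It was 3875, 5388, 6495 and 8171 CPM in the 1552 cells with fewer neutrophil transcripts. In C1q-high cells it was 1861, 2370.0, 2965 and 3958 CPM. Every library gave the same order, although the ranges over libraries overlapped between neighbouring sets, and over all cells the levels were 12368, 6282 and 2772 CPM. Cxcl1 was ordered otherwise, at 1046, 1374 and 643 CPM. Cells picked by a Cxcr2 UMI also carried neutrophil transcripts, though how many of them lay among the 417 cells was not counted. The 267 Myeloid cells with a Cxcr2 UMI had 5144 CPM of S100a9 and the others 449.9 CPM, and 106 against 6.29 CPM of Retnlg. Both genes had helped to define the set with neutrophil transcripts. The macrophage genes C1qa, C1qb and C1qc were at 673, 508 and 404 CPM in the cells with a Cxcr2 UMI. In the other Myeloid cells they were at 1074, 774 and 627 CPM.

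**Figure D2:**
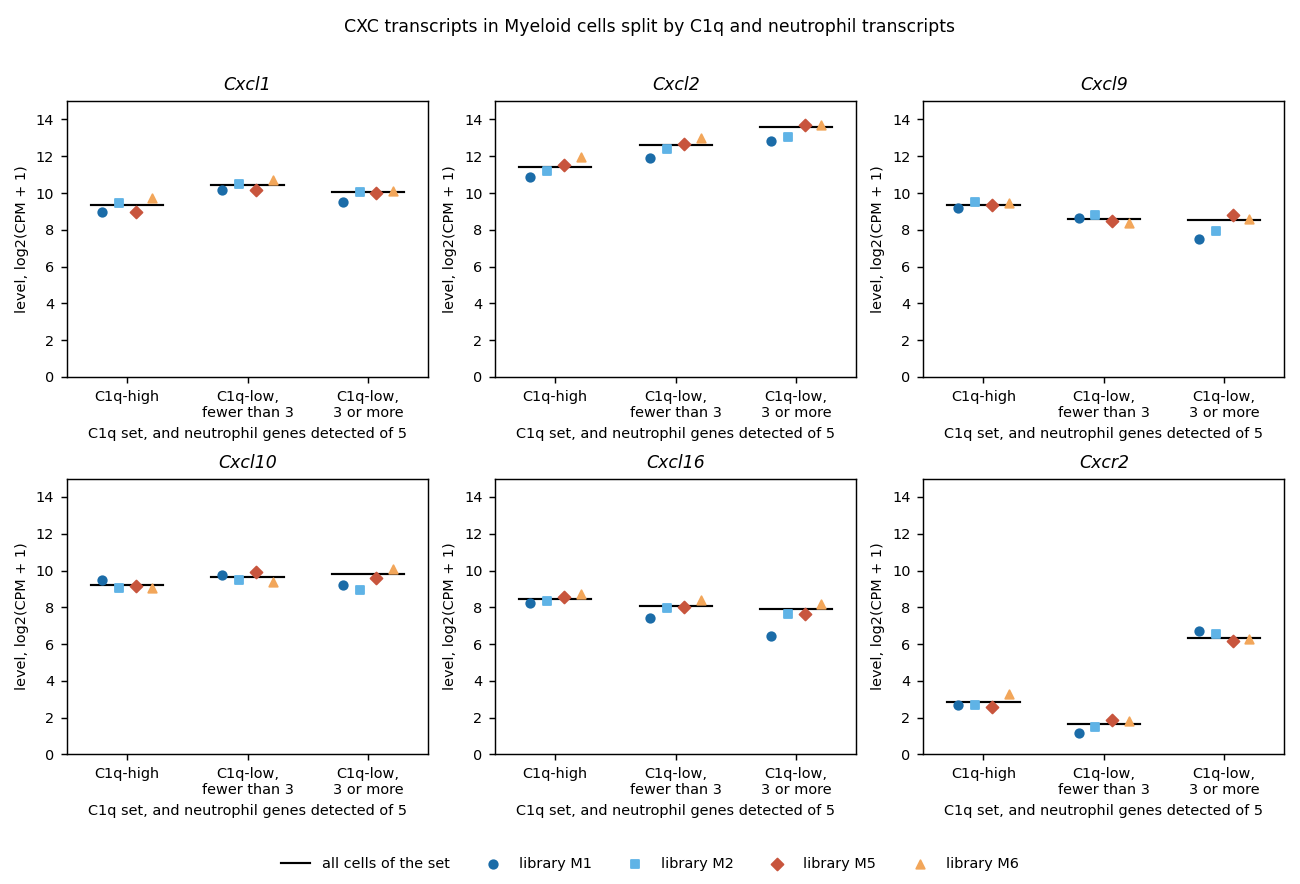
Levels in log2(CPM + 1) of 5 ligands and Cxcr2 in 3 sets of Myeloid cells, divided by C1q transcripts and by the number of 5 neutrophil genes detected. Symbols are libraries and black lines all cells of a set. Cxcr2 stood at 79.4 CPM in cells with 3 or more neutrophil genes and at 2.16 CPM in those with fewer.

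Cxcl9, a ligand of Cxcr3, had its highest levels in Myeloid and DC, although Stroma held 38.0% of its 45945 UMIs, against 39.6% in Myeloid and 7.21% in DC. Its Myeloid level was 473, 556, 467 and 447 CPM, or 479 CPM over all cells (472 to 486). The DC level was 458, 358, 415 and 404 CPM, or 406 CPM (392 to 420.0). Myeloid was the higher within each of the 4 libraries, although the ranges over the libraries overlapped. No library of another label reached these values. The next label was T cell MEM at 63.1 CPM (30.3 to 74.2), followed by 54.6 in ILC, 38.7 in T cell EFF, 25.2 in Stroma, 17.0 in NKT, 12.1 in NK cells and 11.97 in T cells, with overlap between all neighbours, and by a single UMI in B cells. A Cxcl9 UMI was found in 28.5% of thinned Myeloid cells (26.7% to 30.3%) and 26.0% of thinned DC cells (22.3% to 29.9%), against 2.82% of T cell EFF (45.4%, 46.8% and 10.6% unthinned). Unlike Cxcl2, the DC level of Cxcl9 was 368 CPM, in place of 406 CPM, in the 298 DC cells without a myeloid marker UMI.

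Cxcl10, the other Cxcr3 ligand, was spread more widely. In Myeloid it was at 778, 624, 818 and 718 CPM, or 737 CPM over all cells (729 to 746). In Stroma it was at 467, 556, 956 and 942 CPM, or 637 CPM (635 to 639). Myeloid was thus the higher label in M1 and M2 and Stroma in M5 and M6, and the 2 labels could not be put in order: the log2 ratio of Myeloid to Stroma was 0.21 with all libraries and -0.035 without M1. DC was at 379.6 CPM (316 to 515), whose range overlapped that of Stroma. The lymphoid labels followed with 201 in NKT, 189 in ILC, 187 in T cell MEM, 141 in T cells, 122 in T cell EFF, 101 in NK cells and 54.2 in B cells, and all neighbours overlapped. Most of the 498215 Cxcl10 UMIs, 88.5%, were in Stroma.

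Where Cxcl1 was found in most Stroma cells, Cxcl10 was concentrated. The 10% of Stroma cells with the most Cxcl10 held 76.4% of its UMIs in the label, the top 10% for Cxcl1 held 40.0% of those of Cxcl1, and the deepest 10% of cells held 22.5% of all UMIs. After thinning, 29.3% of Stroma cells (28.6% to 30.0%) and 34.8% of Myeloid cells (33.0% to 36.7%) held a Cxcl10 UMI, against 10.4% of T cell EFF (70.8%, 56.2% and 32.8% unthinned).

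Cxcl10 was found more often in cells with Cxcl9 than in cells without it. Among thinned Myeloid cells, 50.1% of the 725 with Cxcl9 and 28.8% of the 1822 without it held Cxcl10, and the direction was the same in all 4 libraries. Among thinned DC cells these shares were 30.7% of 140 and 13.5% of 399, again with 1 direction in all 4 libraries. Cxcl16 was likewise found in 44.8% of Myeloid cells with and 26.8% without Cxcl9, and in 40.7% and 27.1% of DC cells. In Myeloid, Cxcl2 was held by 86.3% of cells with and 57.1% without Cxcl1, whereas in Stroma it was held by 3.35% of cells with and 2.45% without Cxcl1. Cells of a library share their source, and these shares are descriptions with no test.

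**Figure D3:**
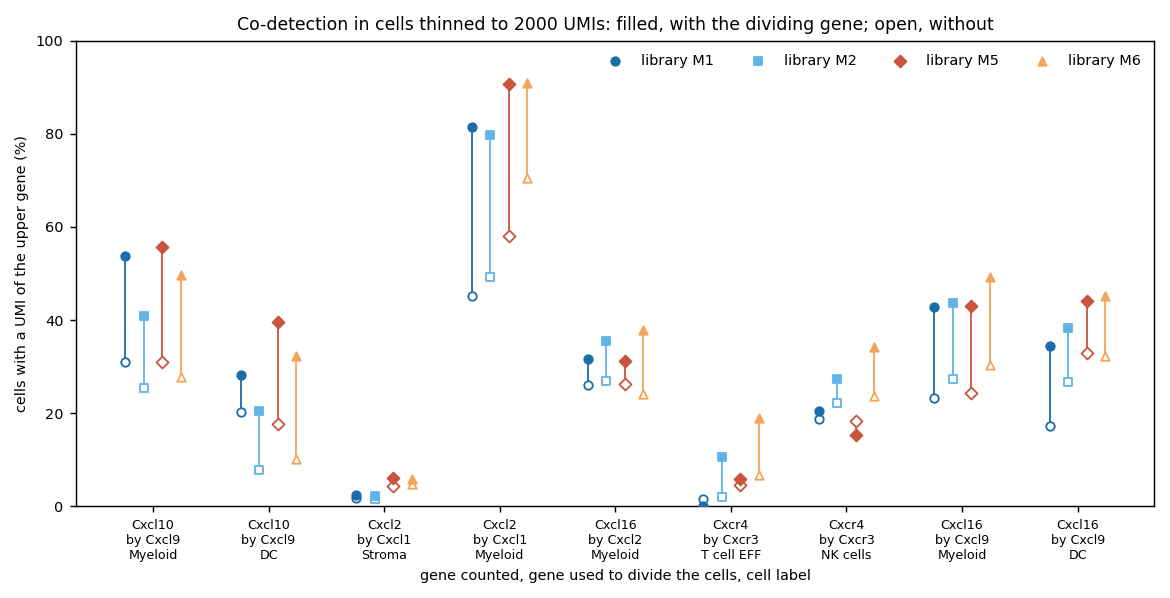
Percentage of cells thinned to 2000 UMIs that held a UMI of the upper gene, among cells with (filled) and without (open) a UMI of the second gene, for 9 gene pairs and labels, with 1 line per library. Cxcl2 by Cxcl1 in Myeloid ran from 45.2% to 70.6% without and 79.8% to 90.9% with Cxcl1.

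The DC label divided these ligands further. In 185 cells with at least 2 UMIs of Ccr7 and Fscn1 together, genes of migratory dendritic cells, Cxcl16 was at 255, 245, 436 and 508 CPM. In 157 of the other cells with as many UMIs of Xcr1 and Clec9a, genes of cross-presenting dendritic cells, it was at 151, 167, 187 and 155 CPM. In 136 of the cells left with as many UMIs of Siglech and Bst2 together, it was at 128, 63.5, 118 and 30.1 CPM. Both are genes of plasmacytoid dendritic cells, but UMIs of either gene alone were enough, and the identity of these cells was not tested. The ranges of the first and second set did not overlap, nor did those of the second and the last. Cxcl9 was at 512 CPM (445 to 591), 366 CPM (309.9 to 418) and 285 CPM (149 to 368) in the same order. Of these sets, Cxcl10 was lowest in the Xcr1 and Clec9a cells, at 135 CPM (59.3 to 171). This range lay below every library of the Ccr7 and Fscn1 cells (411 to 685) and of the Siglech and Bst2 cells (311 to 1199). The DC cells in none of these sets were at 178 CPM, from 79 UMIs, but at 93.3 CPM without M1. In DC as a whole, 13 of 556 cells held as many Cxcl10 UMIs as all the others.

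Cxcl16 was, like Cxcl9, a ligand of Myeloid and DC. The Myeloid level was 228, 275, 293 and 346 CPM, or 293 CPM over all cells (288 to 299). The DC level was 189.9, 182, 279 and 328 CPM, or 240.5 CPM (229.9 to 251), and here too Myeloid was the higher within each of the 4 libraries while the ranges over them overlapped. With the mean over cells of each cell's CPM in place of summed UMIs, the log2 ratio of Myeloid to DC was -0.044 in place of 0.28. All other labels lay below both ranges, from 45.5 CPM in T cell MEM through 37.9 in ILC, 20.5 in T cell EFF, 11.7 in NKT, 7.15 in NK cells, 5.13 in T cells and 4.52 in B cells to 2.08 CPM in Stroma. Of these neighbours only T cell EFF (16.5 to 28.0) and NKT (7.21 to 16.2) did not overlap. A UMI was held by 31.9% of thinned Myeloid cells (30.1% to 33.8%), 30.6% of DC cells (26.7% to 34.7%) and 1.75% of T cell EFF (60.2%, 59.5% and 9.39% unthinned). Its receptor gene Cxcr6 was highest in T cell EFF, at 482, 677, 505 and 451 CPM, followed by T cell MEM at 463 CPM (389 to 664) with an overlapping range. The sheddase gene Adam10 was at 53.0 CPM in Myeloid and 27.8 CPM in DC.

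Cxcl12 was the rarest of the ligands and was confined, in these libraries, almost wholly to few Stroma cells. Of its 5379 UMIs, 98.6% were in Stroma, at 5.44, 4.68, 15.2 and 12.7 CPM, or 7.66 CPM over all cells (7.46 to 7.87). A single UMI in B cells, 2.26 CPM with an interval of 0.0572 to 12.6, made that small label the next, and the remaining labels were at 1.22 CPM or less. In B cells that UMI was in M1, where it put B cells above Stroma. The 281 Stroma cells with a Cxcl12 UMI carried fibroblast transcripts: Col3a1, a fibrillar collagen gene, was at 5985 CPM in them and 57.4 CPM in the other Stroma cells, and Pdgfra, a growth factor receptor gene of fibroblasts, at 95.3 and 6.85 CPM.

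When Stroma was divided at 500 CPM of Col3a1, the ligands separated. Cxcl12 was at 149, 207, 759 and 545 CPM in the 574 cells at or above this level and at 0.345 to 1.89 CPM in the 15113 cells below it. Cxcl9 was at 270.4, 391, 961 and 1359 CPM in the former and 10.4 to 18.0 CPM in the latter. The Cxcl9 level of the former over all cells was 527 CPM, beside 479 CPM in Myeloid, with overlapping ranges. The ranges of the 2 Stroma sets did not overlap for either gene, and the 574 cells, 2.38% of the label's UMIs, held 88.1% of the Cxcl12, 49.6% of the Cxcl9, 42.6% of the Cxcl16 and 20.4% of the Cxcl2 UMIs of Stroma. For Cxcl16 the levels were 37.3 CPM (16.8 to 87.5) and 1.22 CPM (0.917 to 1.94). For Cxcl2 they were 216 CPM (69.9 to 617, and 346 without M1) and 20.5 CPM (12.5 to 43.9).

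Cxcl1 and Cxcl10, in contrast, were high on both sides of this threshold. Cxcl1 was at 2891 CPM (2599 to 3222) in Col3a1-high and 1736 CPM (1389.8 to 2070.4) in Col3a1-low cells, and these ranges did not overlap. Cxcl10 was at 913 CPM (805 to 1234) and 630.1 CPM (457 to 952), with overlapping ranges. The Col3a1-low cells held all but 3.40% of the Stroma Cxcl10 and all but 3.89% of the Stroma Cxcl1 UMIs. There were 1128 Stroma cells within 2-fold of the threshold. The 10 myeloid markers were at 0% to 1.95% of their Myeloid level in the Col3a1-high and 0.161% to 1.30% in the Col3a1-low cells, 11 of the 574 cells scored over 0.25 as doublets, and Cxcl9 was at 423 CPM and Cxcl12 at 235 CPM in the 393 Col3a1-high cells without a myeloid marker UMI. Cxcl2 was at 141 CPM there. T cell markers summed to 77.1 CPM in the Col3a1-high and 12.5 CPM in the Col3a1-low cells, and their part in these levels was not tested.

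Both Cxcl9 and Cxcl12 were in part carried by the same Col3a1-high cells. Without thinning, 59.3% of the 135 such cells with a Cxcl12 UMI also held Cxcl9, against 8.43% of those without Cxcl12. The cells with Cxcl12 were deeper, with a median of 31788 UMIs against 26284. These shares were counted over all libraries together, and the levels of both genes in such cells were higher in M5 and M6 than in M1 and M2. The parts of depth and of library in this difference were not tested. Cxcl9 was unevenly spread over Stroma as a whole, where 30 of 15687 cells held as many of its UMIs as all the others.

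**Figure D4:**
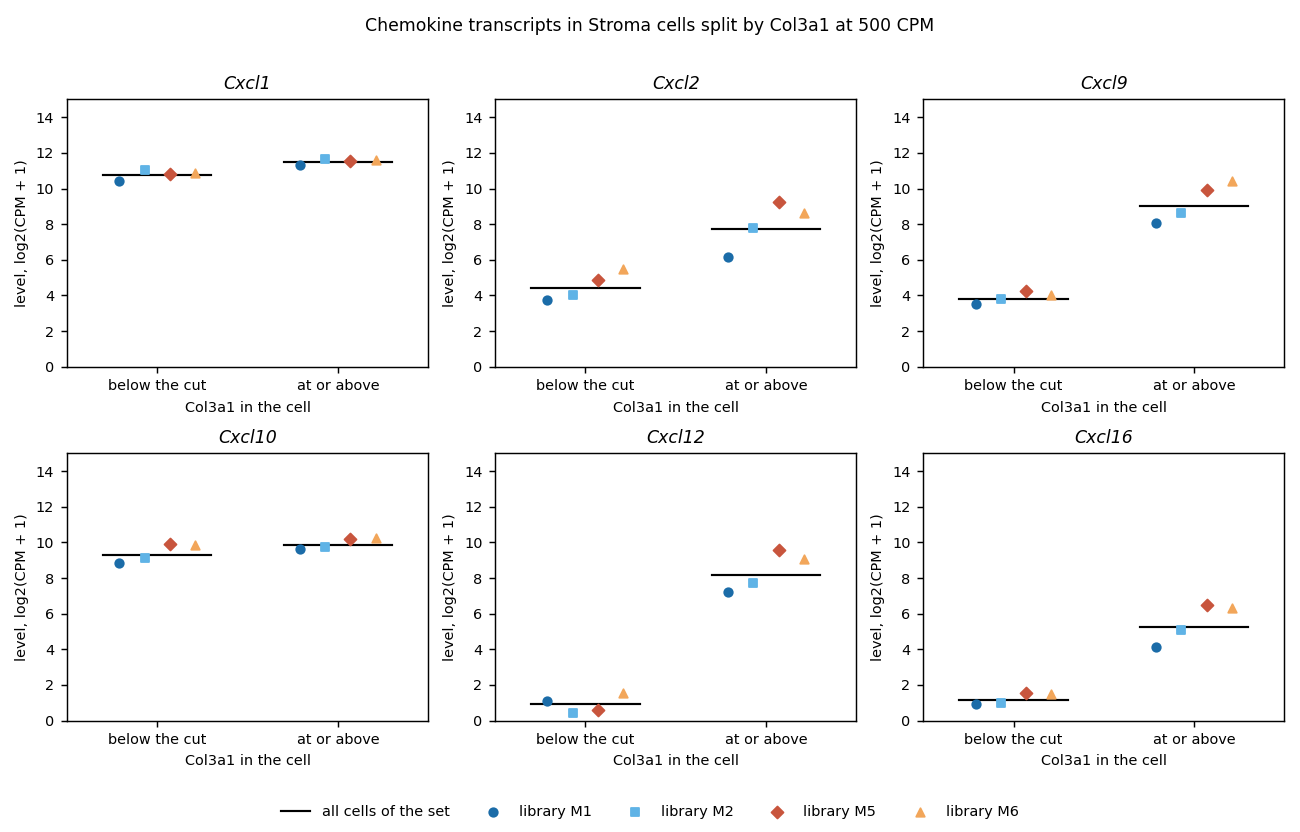
Levels in log2(CPM + 1) of the 6 ligands in Stroma cells below and at or above 500 CPM of Col3a1. Symbols are libraries and black lines all cells of a set. Cxcl12 stood at 0.931 CPM below and 284 CPM at or above the threshold, and Cxcl1 at 1736 and 2891 CPM.

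Cxcr3, the receptor of Cxcl9 and Cxcl10, had its highest levels in NKT, T cells and T cell MEM, while the larger labels ILC and T cell EFF held 29.4% and 20.8% of its 5895 UMIs. T cell markers summed to 744 CPM in ILC and 4504 CPM in T cell EFF, and the part of T cells in the receptor levels of ILC was not tested. Of the regulatory T cell markers, Il2ra and Ikzf2 were highest in NKT and Foxp3 in T cells. NKT was at 111, 95.7, 174 and 168 CPM, or 149 CPM over all cells (138 to 162), and T cells at 129, 128, 141 and 141 CPM, or 139 CPM (119 to 162). These 2 labels overlapped. In T cells, the M1 and M2 values rested on 6 and 16 UMIs, from 11 and 19 cells. T cell MEM came next at 88.9 CPM (69.8 to 97.1), apart from T cells above it and from ILC below it but overlapping NKT, and the order went on with 25.6 in ILC, 23.3 in T cell EFF, 18.9 in DC, 12.1 in NK cells, 11.001 in Myeloid, 4.52 in B cells and 0.237 in Stroma, where all neighbours overlapped. T cell EFF was at 9.50, 14.9, 26.0 and 41.4 CPM, below every library of T cell MEM. A UMI was held by 24.2% of thinned T cells (18.4% to 30.8%), 22.4% of NKT (19.4% to 25.7%), 18.4% of T cell MEM, 6.15% of ILC, 5.39% of T cell EFF and 3.41% of NK cells, against 0.0384% of Stroma cells. Unthinned, these shares were 42.4%, 38.7%, 38.1%, 23.3%, 17.7%, 8.66% and 0.854%.

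Cxcr4, the Cxcl12 receptor, was found in all leukocyte labels. B cells were at 117, 206, 349 and 222 CPM, or 210.0 CPM from 93 UMIs with a counting interval of 169.5 to 257. T cells were at 42.9 (from 2 UMIs), 168, 154 and 243 CPM, or 192 CPM. NKT was at 158 CPM with a library range of 109.6 to 193, and the library ranges of these 3 labels overlapped. The log2 ratio of B cells to T cells was 0.13 with all libraries and -0.27 without M5. Below them over all cells came 87.6 in T cell MEM, 84.4 in Myeloid, 76.4 in NK cells and 65.2 in ILC. Their library ranges were apart from that of NKT but overlapped one another and that of T cells. T cell EFF (9.58, 11.2, 33.7 and 44.6 CPM) and DC (25.5 CPM, 16.2 to 42.9) were below every library of ILC. Stroma was at 0.701 CPM (0.531 to 1.07), apart from all of these. Thinned shares were 35.9% in T cells (29.2% to 43.0%), 31.2% in B cells (22.8% to 40.7%) and 27.6% in NKT (24.4% to 31.1%), and 4.20% in T cell EFF against 0.0895% in Stroma (55.2%, 38.7%, 40.3%, 15.9% and 2.28% unthinned). Of the labels too small to rank, T cell Naive had 30 Cxcr4 UMIs, or 138 CPM with an interval of 93.0 to 197. Its Cxcr3 level was 59.7 CPM with an interval of 31.8 to 102. The ligands in this label were at 106 CPM for Cxcl1, 41.3 for Cxcl2 and 106 for Cxcl10. Their library ranges were 39.6 to 194, 0 to 61.8 and 55.3 to 158. The levels of the 37 Stem cells rested on few libraries. Cxcl1 was at 167 CPM there, but at 69.6 CPM without M5 and 255 CPM without M1. Cxcl10 had 97 of its 104 UMIs in M5, and its 153 CPM was 14.3 CPM without M5 and 272 CPM without M1.

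The receptors also differed between T cells grouped by transcripts. The cells of 5 T cell and NKT labels with a UMI of a CD3 chain were grouped as CD8 (3824 cells), CD4 (401 cells) or Foxp3, the transcription factor of regulatory T cells (868 cells). Cxcr3 was at 9.42, 14.9, 26.2 and 37.2 CPM in CD8, at 115, 141, 107 and 149.8 CPM in CD4 and at 73.8, 89.6, 91.1 and 114 CPM in Foxp3 cells. Every CD8 value was below every value of the other 2 groups, which overlapped. Cxcr4 was at 9.51, 12.4, 27.8 and 42.2 CPM in CD8, at 123, 101, 99.5 and 165 CPM in CD4 and at 38.6, 68.6, 89.0 and 120.0 CPM in Foxp3 cells, and here the CD8 value of M6 reached above the Foxp3 value of M1, while within each library CD8 was the lowest. Cxcr6 ran the other way, at 512, 715, 614 and 524 CPM in CD8 and 292, 235, 201 and 165 CPM in Foxp3 cells, with no overlap between these, and at 265 to 465 in CD4 cells. A CD8 cell had a median of 8999 UMIs, a CD4 cell 5003 and a Foxp3 cell 6607. In T cell EFF, Cxcr4 was found more often in cells with Cxcr3: 10.5% of the 191 thinned cells with Cxcr3 and 3.85% of the others held Cxcr4, although in M1 none of 22 with Cxcr3 did. In NK cells the shares were 24.3% and 20.8%, with the opposite direction in M5.

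**Figure D5:**
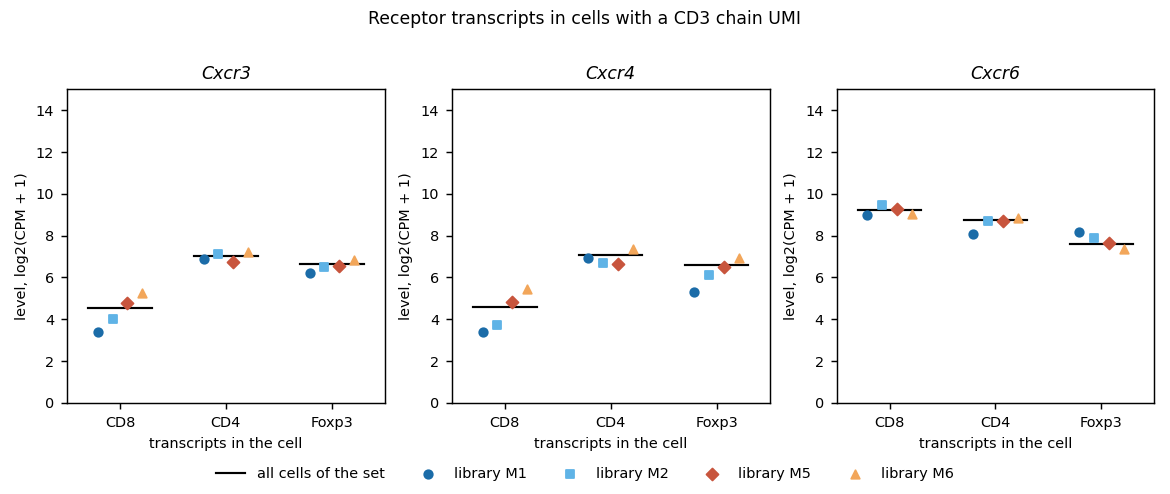
Levels in log2(CPM + 1) of Cxcr3, Cxcr4 and Cxcr6 in cells with a CD3 chain UMI, grouped as CD8, CD4 or Foxp3. Symbols are libraries and black lines all cells of a group. From CD8 to Foxp3, Cxcr3 went from 22.02 to 98.8 CPM and Cxcr6 from 593 to 194 CPM.

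Between libraries, the ligands of Stroma varied more than most genes. Among genes of at least 20 CPM in Stroma, 0.808% of 5323 had a highest library at least 2-fold above the lowest, and the median ratio was 1.14. Of the 4 ligands at this level, 3 were past 2-fold: Cxcl2 (3.60-fold), Cxcl9 (2.34-fold) and Cxcl10 (2.05-fold), and Cxcl1 was at 1.47-fold. Cxcl2 and Cxcl9 were close to the limit of 20 CPM, at 25.1 and 25.2 CPM. As many of their UMIs as in all other Stroma cells were held by 92 and 30 of the 15687 cells. For the 3 ligands past 2-fold, M5 and M6 were both above M1 and M2. The median depth of Stroma cells rose in the same order, from 38910 UMIs in M1 to 43989 UMIs in M6, and M5 and M6 had fewer Stroma cells (1946 and 2338) than M1 and M2 (6300 and 5103), and the part of depth and cell number in these differences was not tested. In Col3a1-low cells alone, Cxcl9 was at 10.4, 13.0, 18.0 and 15.3 CPM, so that its highest library was less than 2-fold above its lowest there. Cxcl10 in these cells was at 457, 550.2, 952 and 936 CPM and Cxcl2 at 12.5, 14.99, 28.2 and 43.9 CPM, but Cxcl2 in those of them without a myeloid marker UMI was at 9.53, 13.2, 14.9 and 24.2 CPM. In the same cells without a marker UMI, Cxcl10 was at 434, 517, 869 and 977 CPM.

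In Myeloid, 4.71% of 5673 genes of at least 20 CPM were past 2-fold between libraries, with a median ratio of 1.26, and Cxcl2 (2.67-fold) was the only one of the 6 chemokine and receptor genes at this level to be so. Cxcr4 (1.996-fold), Cxcl1 (1.60), Cxcl16 (1.52), Cxcl10 (1.31) and Cxcl9 (1.24) were below it. The number of Myeloid cells with neutrophil transcripts also differed, at 40, 55, 96 and 226 in the order of the libraries above. Since the libraries have no known treatment, these differences cannot be told apart from those between animals, preparations or treatments.

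Genes with the most similar pattern were found by Pearson's r of log2(CPM + 1) over 38 points, each a label in 1 library with at least 20 cells, among 14210 genes of at least 200 UMIs. The points share libraries and labels, and r is given as a description. For Cxcl1 they were Ccl2 (r = 0.954), Ctsl (r = 0.939) and Fn1 (r = 0.914), and Ccl2 encodes a chemokine that draws monocytes. For Cxcl2 they were Il1a (r = 0.945), Clec4e (r = 0.943) and Trem1 (r = 0.940), where Il1a encodes the cytokine interleukin-1 alpha and Trem1 a receptor of neutrophils and monocytes. Cxcr2 shared Trem1 (r = 0.949), followed by Il1f9 (r = 0.918) and Csf3r (r = 0.917), of which the last encodes the receptor of the granulocyte growth factor G-CSF. Those of Cxcl16 were Tgfbi (r = 0.961), Cd300a (r = 0.913) and Il1b (r = 0.911), and those of Cxcl9 were Akr1a1 (r = 0.932), Alox5ap (r = 0.923) and Flrt3 (r = 0.913).

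The genes most like Cxcl10 were Gm4951 (r = 0.884), Cdkn1a (r = 0.867) and Ifi204 (r = 0.856), at lower values of r than for the other ligands of the Myeloid label. Cxcl12 was closest to Col5a3 (r = 0.875), Sfrp2 (r = 0.846) and Vgf (r = 0.840), of which Col5a3 encodes a collagen chain and Sfrp2 a secreted Wnt modulator of fibroblasts. Near Cxcr3 stood Tmem191c (r = 0.940), Prr7 (r = 0.935) and Pak2 (r = 0.928), and near Cxcr4 Arhgef3 (r = 0.956), Man1a (r = 0.949) and Skil (r = 0.946).

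Of the 13 other CXC family genes looked up, Cxcl11 was not found among the genes of the table under that name. Cxcl3, a further Cxcr2 ligand, was highest in Myeloid at 294 CPM (158 to 487), or 193 CPM without M6, and within it at 901 CPM in the cells with neutrophil transcripts, 288 CPM in those with fewer and 84.0 CPM in C1q-high cells. Pf4 and Cxcl14 were also highest in Myeloid, at 214 CPM (197 to 253) and 30.6 CPM (18.5 to 48.4). Cxcl5, another ligand of Cxcr2, was highest in Stroma, at 38.5 CPM (22.2 to 78.6), as was Ackr3, a scavenging receptor of Cxcl12, at 37.8 CPM (34.5 to 42.8). The B cell homing receptor gene Cxcr5 was at 167 CPM (148 to 196) in B cells. Cxcl13, Cxcl15, Cxcl17, Ppbp and Cxcr1 reached at most 4.16 CPM in any ranked label, for Cxcl13 in Myeloid, where 2.77 CPM was left without M5.

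Among genes of the inducing pathways, Ifng, which encodes interferon-gamma, was highest in T cell EFF at 278, 278, 391 and 580.2 CPM. The interferon-responsive transcription factor gene Irf1 was at 348 CPM (251 to 400.2) in Myeloid and 276 CPM (217 to 389.8) in Stroma, and its highest level was in B cells. In Stroma, Irf1 was at 217, 257, 389.8 and 361 CPM, with M5 and M6 above M1 and M2, as for Cxcl10 there. In Myeloid, neither Cxcl9 nor Cxcl10 had M5 and M6 both above M1 and M2. Receptor genes Ifngr1 and Ifngr2 were at 42.6 and 34.7 CPM in Stroma and 285 and 80.7 CPM in Myeloid. Il1b and Tnf, which encode inducers of Cxcl1 and Cxcl2 through NF-kB, were highest in Myeloid. They were at 2836, 3921, 4398 and 5537 CPM for Il1b and 185, 254, 423 and 444 CPM for Tnf. M1 was the lowest library for both, as it was for Cxcl2. The likeness of genes in their order of libraries was not tested. Nfkbia, an NF-kB target, was at 1706 CPM (1244 to 2036) in Myeloid and 1107 CPM (928 to 1336) in Stroma. Il17a was at 18.3 CPM (9.06 to 61.6) in NKT, or 10.6 CPM without M2, and Dpp4, whose enzyme trims Cxcl9, Cxcl10 and Cxcl12, was highest in DC at 51.4 CPM (45.9 to 55.1).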

How the data were processed

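Per the labels and the study's methods, the authors enriched CD45+ cells from dissociated CT26 tumors, made 10x Genomics 3' libraries and used Cell Ranger 3.0.2 on mm10 (GRCm38) to produce the deposited counts of UMIs per gene and cell. Cells with over 500 UMIs were kept and the libraries were merged. The deposited cells begin at 1220 to 1298 UMIs and 801 to 802 genes per library, so that a stricter limit than the stated one shaped the table. The deposited metadata give each cell's library and its label, which rests on the highest correlation with ImmGen reference profiles, and removal of doublets is not given in the sources used here.

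Counts of all cells of a label or set were summed and scaled to CPM, with exact Poisson intervals, and shares of cells were computed after thinning without replacement to 2000 UMIs, with exact binomial intervals, all at 95%. Shallower cells were left out of the shares. Doublets were scored with scrublet in scanpy 1.11.5. Its automatic threshold called 0 cells in M5, so that a fixed score of 0.25 was used (60 to 271 cells per library), and these cells were left out only in alternatives. All steps ran in Python 3.11.15 with pandas 2.3.3, scipy 1.17.1 (intervals) and numpy 2.4.6 (thinning), and the summing, thinning and ordering steps were tested on simulated data.

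The 4 libraries could not be matched to the 6 labelled samples, and no statistical test was run. The sets within labels were defined by fixed transcripts, and the genes named are the 9 members, 13 family genes, 11 inducers and partners, and the 3 genes most like each member. Of the inducers and partners, 1 is not reported here. The members, lists and thresholds were chosen with earlier results of these data known. The levels without cells that held a myeloid marker UMI or a high doublet score, and those with 1 library left out, were chosen after the values were seen. Gene positions are those of GENCODE on GRCm38 and promoter windows those of RefSeq.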

Additional observations from a re-analysis of the deposited data

How the results depend on the processing

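For each gene the log2 ratio of its highest label to the next was computed with all cells and under 10 alternatives. Of these 90 values, 2 changed sign after a lead beyond the counting interval, 29 moved beyond that interval and 59 stayed within it. Among the latter groups, the sign also turned for Cxcr3 and Cxcr4, whose leads were within the interval. With the mean over cells of each cell's CPM in place of summed UMIs, the ratio was 0.91 for Cxcl1 (0.73 with summed UMIs), 4.27 for Cxcl2 (2.96), 0.16 for Cxcl9 (0.24), 0.37 for Cxcl10 (0.21), 3.25 for Cxcr2 (1.53) and, with the sign turned, -0.044 for Cxcl16 (0.28, DC then above Myeloid) and -0.14 for Cxcr3 (0.098, T cells then above NKT). With each library weighted equally it was 0.80 for Cxcl1, 0.0086 for Cxcl10 and 0.55 for Cxcr4 (0.13). A pseudocount of 10 CPM gave 2.94 for Cxcl2, 0.53 for Cxcl12 and 0.75 for Cxcr2. Without cells over the doublet score of 0.25 it was 0.79 for Cxcl1 and 0.24 for Cxcl10, and without cells over 10% mitochondrial UMIs it was 0.71 for Cxcl1, 2.97 for Cxcl2 and 0.25 for Cxcl10. Leaving out each library in turn gave 0.61 to 0.89 for Cxcl1, 2.91 to 3.03 for Cxcl2, 0.11 to 0.30 for Cxcl9, -0.035 (without M1) to 0.37 for Cxcl10, 0.93 to 3.33 (without M1) for Cxcl12 (1.41), 0.17 to 0.35 for Cxcl16 and -0.27 (without M5) to 0.46 for Cxcr4. The cause of these shifts was not tested. Of 81 shares of cells under alternatives, 35 moved beyond their interval, 25 of them where the thinning was changed and 10 where it was not.

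No paired analysis was possible because the libraries carry no replicate number that the sample labels give and no result comes from a test. Depth limits Cxcr2, which rests on 1088 UMIs in all, and B cells, where Cxcr4 rests on 93 UMIs. Cxcl12 and Cxcr3 rest on 5379 and 5895 UMIs in all. A library's values come from 1 preparation, and differences between libraries cannot be told apart from those between treatments. The source of low ligand levels in leukocyte labels was not tested. Of 79 levels by label with at least 20 UMIs, 12 moved by over 1.5 times when 1 library was left out, all in labels other than Stroma and Myeloid.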
